A study of Canis lupus familiaris with 36 samples.

Results

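CLBL-1 is a canine diffuse large B-cell lymphoma line that grows in suspension, and its DMSO cultures served as the vehicle control for 2 kinase inhibitors. The comparison described here is DMSO at 72 h against DMSO at 48 h, which shows what a further day in culture did to the control cells alone. It holds 6 of the 36 RNA-seq libraries, 3 per time point, chosen by treatment and time label and not by any measured value. Both groups carried DMSO at the content of the combined treatment and no inhibitor, and each time point holds passages p121, p126 and p128 of the line. The other libraries used beside them are DMSO at 24 h and, at 48 and 72 h, Ibrutinib at 1 μM (Ibr), AS-605240 at 5 μM (AS) and both together (Ibr + AS), again with 3 passages per group. The replicates are cultures of 3 passages of 1 line, so a p-value measures the spread between these cultures and not between dogs. Every culture held DMSO, so time in DMSO, time since seeding and cell density cannot be told apart by this design.

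A suspension culture that is left to grow uses up nutrients and gathers metabolic products, and its cells adjust amino acid synthesis, protein synthesis and cell cycle genes as it becomes dense. Ribosome biogenesis takes a large share of a growing cell's effort and is tied to MYC and to mTOR signaling. B cells present antigen through MHC class II molecules, which in the dog are named DLA, and they receive survival signals through the B-cell receptor and the BAFF receptor.

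The 6 libraries held 10646809 to 14581090 counted reads, and 3 reads in a library equalled 0.206 to 0.282 counts per 1000000 reads (CPM), the level unit used below. Between 14449 and 15107 genes had a read in each library. Of the 30424 Ensembl identifiers in the table, 1068 could be paired with a symbol, so 894 of the 11253 genes that were tested in both fits described below can be named, and the lists of genes were drawn from these. MS4A1 and the CD79 genes are not analysed here. The levels of the markers that could be paired are given below, and they do not test the B-cell label. The summed level of 7 B-lineage markers, 4 of them DLA genes, was 5089 to 5351 CPM at 48 h and 6465 to 6971 CPM at 72 h. Most of that difference lay in DLA-DRA, at a mean of 3221 and then 4533 CPM. The list's median log2 fold change was 0.03, with 3 of 7 risen and TNFRSF13C, the BAFF receptor, fallen. Among 5 tested T and NK markers the sum was 0.418 to 0.775 CPM at 48 h and 1.30 to 2.07 CPM at 72 h, of which IL5 made up most, and IL2RB was at 0 CPM on average at both times. The 5 myeloid markers summed to 85.7 to 104 CPM at 48 h and 103 to 128.4 CPM at 72 h, most of it LYZ, with TREM2 at a mean of 0.0524 and 0 CPM. LYZ rose, with a log2 fold change of 0.35, TREML2 fell, CSF2RB, at -0.18, did not pass, and the list's median was -0.18. The 4 tested stromal and endothelial markers summed to 7.82 to 8.75 CPM and then 7.96 to 11.9 CPM. In bulk RNA a change in the share of a kind of cell and a change in RNA per cell cannot be told apart, and the part of these markers in the results was not tested.

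Between 48 and 72 h, 495 genes were differentially expressed (DEGs), meaning an adjusted p no higher than 0.05 together with a log2 fold change (FC) beyond 1 in either direction, and 363 of them were higher and 132 lower at 72 h. They made up 3.01% of the 16468 genes tested with edgeR's quasi-likelihood test, 2.2% for the higher and 0.802% for the lower genes. The median log2 FC was 1.39 among the higher and -1.31 among the lower DEGs. All 3 passages moved in the same direction for 484 of the 495, and the libraries of the 2 times did not overlap for 465. Of all tested genes 35.3% had no overlap. The 495 were chosen by a test on these same libraries, so both counts are partly built in and test nothing. At a looser limit, the adjusted p alone, 2289 genes were higher (13.9%) and 2560 lower (15.5%), 29.4% of those tested, so the excess of higher genes was found among the larger changes. In this fit, which kept each gene with at least 2 reads over the 9 DMSO libraries, the spread of a gene was taken wholly from the trend over all genes. A second fit of 11253 genes with enough reads (filterByExpr) used each gene's own spread too, and gave 410 DEGs, 296 higher and 114 lower, 3.64% of its genes. The 2 fits shared 396 DEGs, 285 higher and 111 lower, or 80% of the first and 96.6% of the second set. Throughout, a gene is said to have risen or fallen in DMSO only where its adjusted p was at most 0.05 in both, fold changes are from the first fit, and standard errors (SE) and adjusted p-values of single genes are from the second.

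**Figure D1:**
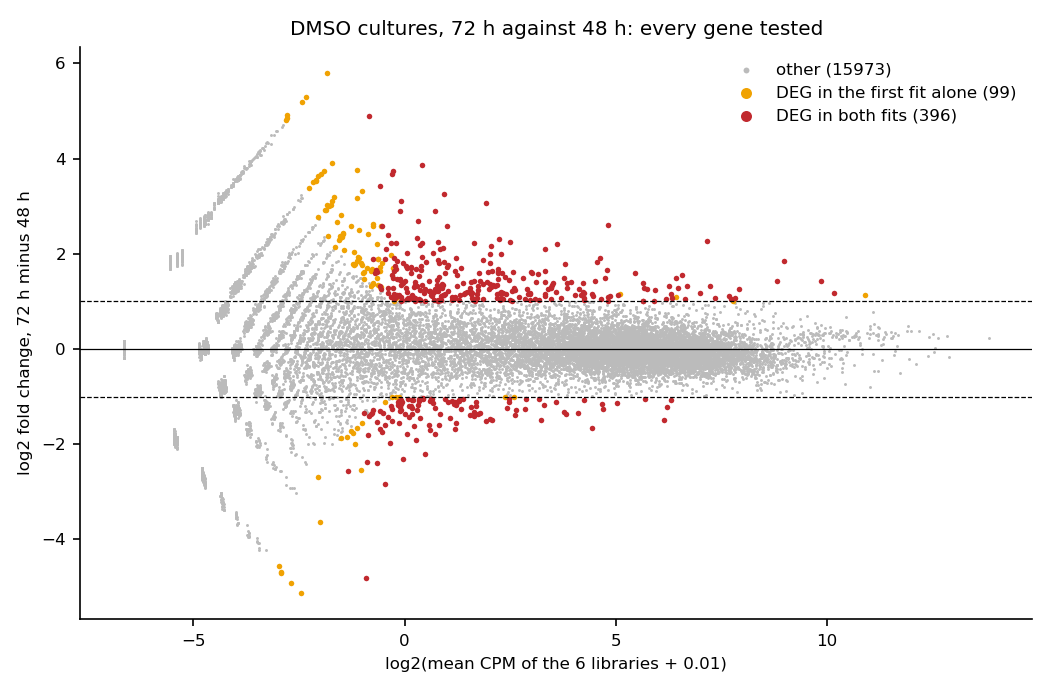
The log2 fold change of DMSO 72 h against 48 h (vertical axis) is plotted for each of the 16468 tested genes against the log2 of its mean CPM over the 6 libraries plus 0.01 (horizontal axis), with dashed lines at 1 and -1. The 396 DEGs of both fits are red and those of the first fit alone orange. Few DEGs lie at the right, where 15 of the 495 averaged 100 CPM or more (3.03%, against 13.3% of all tested genes).

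Over the 6 libraries 325 of the DEGs averaged 1 CPM or more (65.7%), as did 65.4% of all tested genes. At 10 CPM or more there were 83 (16.8%, against 49.3%) and at 100 CPM or more 15 (3.03%, against 13.3%). For 58 DEGs, 45 higher and 13 lower, every library of the lower group held 3 reads or fewer. The 363 higher DEGs took 0.473% to 0.673% of the reads at 48 h and 1.27% to 1.32% at 72 h, and had taken 0.319% to 0.328% at 24 h. The 132 lower DEGs took 0.0853% to 0.108% at 48 h and 0.0370% to 0.0420% at 72 h. These genes were chosen for this difference, so the shares describe its size and test nothing.

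Among DEGs with a symbol, an average of 1 CPM or more and the same direction in all passages, 8 were higher and 5 lower at 72 h. PSAT1, the phosphoserine aminotransferase of serine synthesis, took the most reads of them. It measured 245, 248 and 232 CPM at 48 h and 588, 666 and 709 CPM at 72 h in passages p121, p126 and p128, the order of every set of 3 values below. The lowest 72 h library lay above the highest 48 h library by a wide gap. At 24 h PSAT1 had stood at 214, 225 and 212 CPM, close to its 48 h level. Its log2 FC was 1.44 (SE 0.0702, edgeR adjusted p = 4.6e-10). TRIB1, a pseudokinase that brings proteins to a ubiquitin ligase, measured 55.0, 36.8 and 39.8 CPM at 48 h and 108, 109 and 108 CPM at 72 h. The 3 passages met at 72 h after a 48 h value that was highest in passage p121, and the log2 FC was 1.32 (SE 0.0929, edgeR adjusted p = 2.24e-08).

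The other 6 higher genes had few reads. TTC39B, a tetratricopeptide repeat protein, rose from 3.76, 3.1 and 4.07 CPM to 10.3, 10.3 and 10.4 CPM (log2 FC 1.5, SE 0.150, edgeR adjusted p = 8.6e-07). MYO1A, a myosin known from the intestinal brush border, rose from 1.75, 2.25 and 2.63 CPM to 7.09, 6.64 and 7.55 CPM (log2 FC 1.69, SE 0.192, edgeR adjusted p = 3.14e-06). ALDH8A1, an aldehyde dehydrogenase, went from 1.5, 1.78 and 2.79 CPM to 6.34, 6.64 and 5.98 CPM (log2 FC 1.64, SE 0.205, edgeR adjusted p = 7.77e-06). In each of these 3 the times stood clearly apart and the passages lay close together at 72 h. IL23A, which encodes the subunit particular to interleukin 23, had 2.09, 1.39 and 3.27 CPM at 48 h and 5.11, 8.63 and 7.14 CPM at 72 h (log2 FC 1.61, SE 0.248, edgeR adjusted p = 6.14e-05). Its passages spread more than those of the genes above but did not overlap between times. IL17REL, related to the interleukin 17 receptors, had 1.67, 0.697 and 0.558 CPM and then 1.84, 1.8 and 2.74 CPM (log2 FC 1.12, SE 0.339, edgeR adjusted p = 0.0122). Passage p121 hardly moved, by 0.13 on the log2 scale, against 1.28 and 2.14 in the others, and without passage p128 the log2 FC was 0.62 and no longer passed. MAPK8IP2, a scaffold of JNK signaling, went from 0.835, 0.930 and 0.718 CPM to 1.57, 1.61 and 1.91 CPM (log2 FC 1.04, SE 0.318, edgeR adjusted p = 0.0123), and it too did not pass without passage p128. At 24 h MAPK8IP2 had stood at 1.24, 2.05 and 1.00 CPM, above its 48 h level in every passage. Its log2 FC of 72 h against 24 h was 0.24 and did not pass.

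The 5 lower genes were all under 10 CPM. BCR, the breakpoint cluster region gene, which does not encode the B-cell receptor, fell from 8.85, 6.35 and 7.26 CPM to 4.5, 2.37 and 3.90 CPM (log2 FC -1.04, SE 0.168, edgeR adjusted p = 0.000123). TREML2, a TREM family receptor of myeloid and B cells, fell from 6.85, 7.83 and 6.30 CPM to 3.68, 2.94 and 3.57 CPM (log2 FC -1.02, SE 0.182, edgeR adjusted p = 0.000337). In both, passage p126 dropped the most, and the second fit put TREML2 just short of a 2-fold fall, at a log2 FC of -0.99. In a reference annotation other than the one used for counting, BCR and TREML2 each overlap another gene. So do others named below, among them MYB, NCF4, ITGA4, PLAGL1 and ACAT2. Whether reads were counted by strand is not given in the sources used here. GRTP1, a TBC domain protein, fell from 2.59, 1.01 and 2.15 CPM to 0.613, 0.190 and 0.664 CPM (log2 FC -1.92, SE 0.369, edgeR adjusted p = 0.000566). Passage p126 was the lowest at both times and fell as far as the others. GRK1, a G protein-coupled receptor kinase, fell from 1.92, 1.01 and 1.67 CPM to 0.682, 0.664 and 0.664 CPM (log2 FC -1.19, SE 0.355, edgeR adjusted p = 0.0136). HIGD1B went from 2.26, 0.852 and 1.44 CPM to 0.682, 0.379 and 1.08 CPM (log2 FC -1.07, SE 0.372, edgeR adjusted p = 0.0312). For HIGD1B the groups overlapped, as passage p128 at 72 h lay above passage p126 at 48 h. GRK1 did not pass without p121 or without p128, and HIGD1B without p121 or without the 72 h library of p126.

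**Figure D2:**
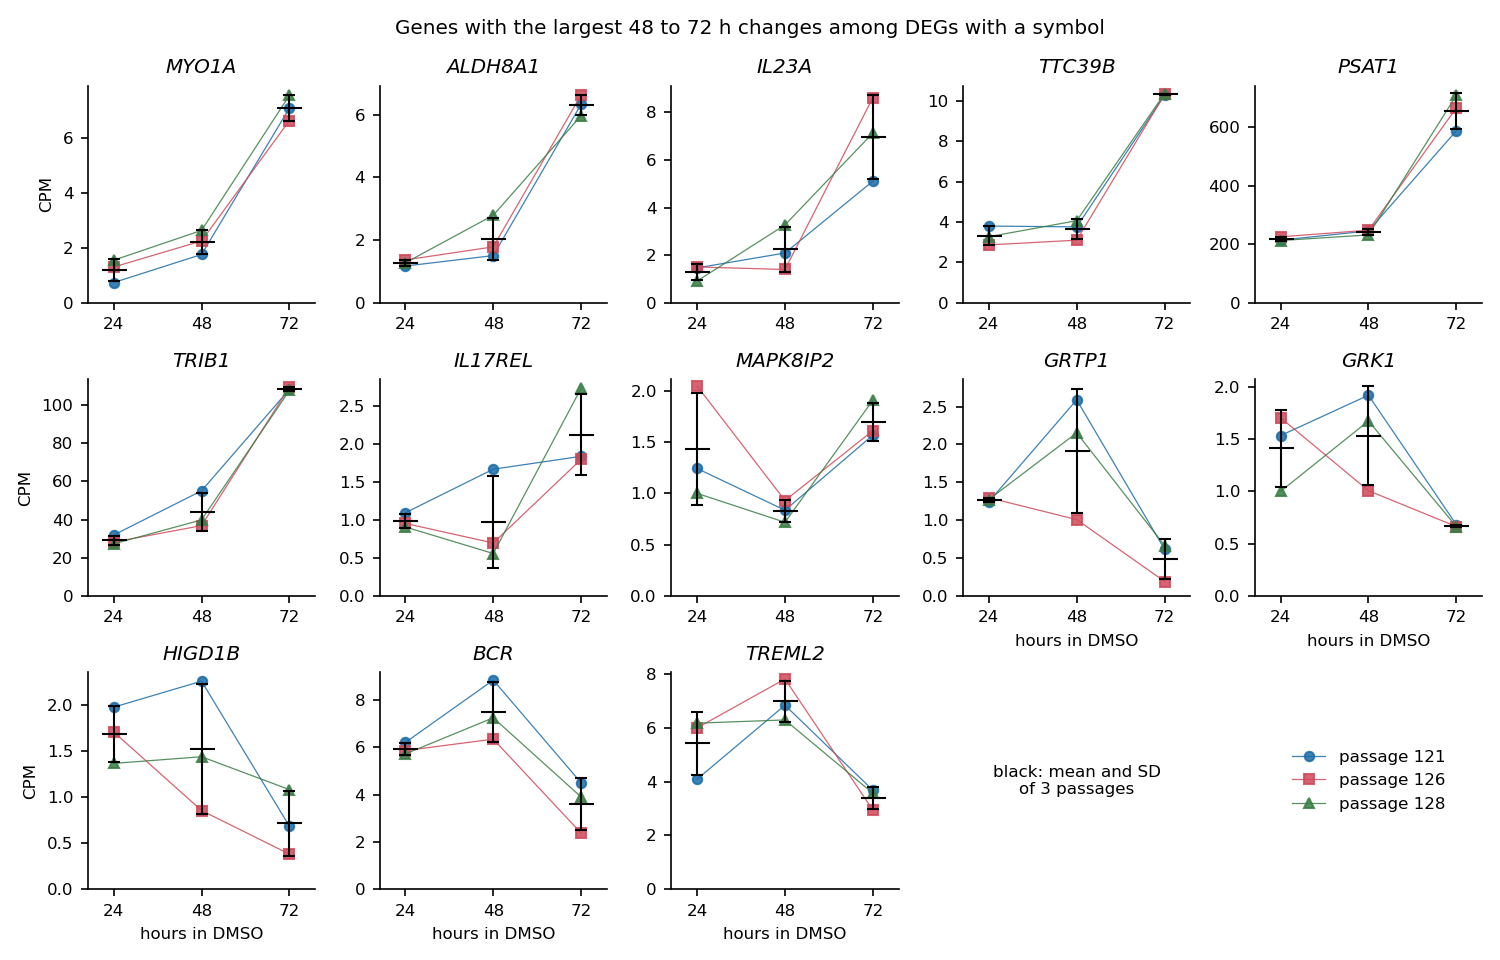
Levels in CPM (vertical axes, each from 0) of the 13 DEGs with a symbol, an average of 1 CPM or more and the same direction in all passages are plotted at 24, 48 and 72 h in DMSO, with a line per passage and the mean and SD of 3 passages in black. PSAT1 and TTC39B were flat up to 48 h and rose after it, TRIB1 and MYO1A climbed over both days, and in BCR and TREML2 all 3 passages were lower at 72 h than at either earlier time.

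Identifiers without a symbol held larger changes. ENSCAFG00000003904 had 1 to 3 reads per library at 48 h, 6 in all, and 21 to 47 reads at 72 h, 90 in all. The ratio of its normalized reads was 15.1, with an exact counting interval of 6.66 to 42.1 (95%) that covers counting error only. ENSCAFG00000044729 rose from 0.501, 0.310 and 0.239 CPM to 3.00, 3.79 and 3.49 CPM (log2 FC 3.26, SE 0.324, edgeR adjusted p = 8.6e-07). For both genes every 72 h library was above every 48 h library. At the other end, ENSCAFG00000002727 fell from 2.51, 2.25 and 2.07 CPM to 0.273, 0.379 and 0.830 CPM (log2 FC -2.21, SE 0.353, edgeR adjusted p = 0.000106). ENSCAFG00000011287 fell from 2.09, 1.70 and 1.04 CPM to 0.545, 0.379 and 0.415 CPM (log2 FC -1.79, SE 0.394, edgeR adjusted p = 0.00167). None of the 4 overlapped between the times.

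Over the gene lists, smaller changes were read from the adjusted p alone. Of the 894 named genes of both fits, 184 rose (20.6%) and 261 fell (29.2%), with a median log2 FC of -0.05. Each list below is set beside these shares. Some genes are counted in more than 1 list: TRIB1 in the growth and ATF4 lists and HMOX1 in the hypoxia and redox lists. MYB is in the growth and B-cell regulator lists, and IRF5 in the interferon and B-cell regulator lists. Lists and members were chosen with earlier results of these data known, so a lean away from these shares is a description and not a test. A gene can be called only if it was in both fits, and 1 member each of the endoplasmic reticulum, PI3K and cell cycle lists was not. The libraries did not overlap for 46.4% of the genes of both fits.

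Growth and immediate early genes leaned upward. Of the 8 members, 5 rose, none fell in either fit, and the median log2 FC was 0.64, or 0.52, 0.65 and 0.70 by passage. MYC, the growth transcription factor, measured 199, 169 and 203 CPM at 48 h and 275, 280 and 275 CPM at 72 h. All 3 passages rose to nearly the same level (log2 FC 0.54, SE 0.0774, edgeR adjusted p = 2.17e-05). MYB, a transcription factor of immature and dividing blood cells, rose from 40.0, 36.4 and 39.3 CPM to 62.8, 53.9 and 60.3 CPM (log2 FC 0.61, SE 0.0727, edgeR adjusted p = 3.87e-06). NAB2, a corepressor of EGR proteins, rose from 25.4, 23.2 and 27.4 CPM to 38.2, 44.7 and 47.2 CPM (log2 FC 0.77, SE 0.0902, edgeR adjusted p = 3.56e-06). IER3 rose with a log2 FC of 0.68 and TRIB1 is described above, while KLF10 and PIM1 had values of 0.19 and 0.20 that did not pass.

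EGR1, an early response transcription factor, was called in the first fit alone. It measured 294, 86.6 and 90.8 CPM at 48 h and 283, 241 and 317 CPM at 72 h. Passage p121 was at its 72 h level a day early and the other passages were not, so that the groups overlapped. Its log2 FC of 1.01 passed in the first fit and not in the second (SE 0.436, edgeR adjusted p = 0.137). At 24 h the 3 passages stood together at 140, 114 and 111 CPM. Without passage p121, 7 of the 8 growth genes passed in the second fit.

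Antigen presentation genes also leaned upward, with 5 of 7 risen, 1 fallen and a median log2 FC of 0.33. Their summed level was 5330 to 5565 CPM at 48 h and 6748 to 7299 CPM at 72 h. DLA-DRA, the MHC class II alpha chain that takes most of these reads, measured 3095, 3408 and 3161 CPM at 48 h and 4531, 4783 and 4285 CPM at 72 h (log2 FC 0.49, SE 0.0705, edgeR adjusted p = 2.21e-05). DLA-DQA1, another class II alpha chain, rose from 871, 716 and 765 CPM to 1066, 978 and 1002 CPM (log2 FC 0.37, SE 0.0703, edgeR adjusted p = 0.00025). DLA-DOA, which modulates peptide loading in B cells, rose from 51.5, 55.6 and 51.7 CPM to 80.8, 65.9 and 74.3 CPM (log2 FC 0.47, SE 0.0797, edgeR adjusted p = 0.000102). None of the 3 overlapped between the times. The class I heavy chain gene DLA88 and the peptide transporter subunit TAP1 rose with log2 FCs of 0.33 and 0.18. TAPBP, which tethers class I molecules to that transporter, fell from 245, 238 and 234 CPM to 199, 183 and 200 CPM, and DLA-DMA, with a log2 FC of -0.02, did not pass. DLA genes have near-identical copies, and how reads were split among them is uncertain. Of the 10 interferon genes 8 were in both fits, and of these none rose and 2 fell, IFNGR1 and TRIM56.

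The protein synthesis lists went in opposite directions. Of 16 genes of the cytosolic ribosome and of translation, 11 rose and 2 fell, with a median log2 FC of 0.21 (0.22, 0.29 and 0.18 by passage). RPL3, a protein of the large ribosomal subunit, measured 2087, 2123 and 2140 CPM at 48 h and 2454, 2809 and 2586 CPM at 72 h (log2 FC 0.30, SE 0.0704, edgeR adjusted p = 0.0013). All 7 ribosomal proteins of the list rose, with log2 FCs of 0.21 to 0.30. EIF3E, a subunit of initiation factor eIF3, rose from 659, 850 and 786 CPM to 960, 1278 and 1009 CPM (log2 FC 0.50, SE 0.0913, edgeR adjusted p = 0.000256). Against these, EIF4G2, an initiation factor that lacks the cap-binding partner site, fell from 1737, 1699 and 1701 CPM to 1026, 1042 and 1011 CPM. The EIF4G2 values were tight within each time and wide apart between them (log2 FC -0.74, SE 0.0650, edgeR adjusted p = 3.85e-07). Ribosomal protein genes have many processed copies in mammalian genomes, and how their reads were split is uncertain.

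Of 13 ribosome biogenesis genes, 9 fell, UTP23 alone rose, and the median log2 FC was -0.35 (-0.38, -0.40 and -0.26 by passage). WDR46, a nucleolar protein of small subunit assembly, went from 67.7, 76.3 and 65.4 CPM to 34.2, 42.5 and 42.2 CPM (log2 FC -0.82, SE 0.0797, edgeR adjusted p = 9.29e-07). BYSL, which acts in the same assembly, fell from 128.05, 143 and 116 CPM to 75.7, 74.3 and 77.2 CPM (log2 FC -0.76, SE 0.0737, edgeR adjusted p = 8.94e-07). The 72 h libraries lay below every 48 h library for both. RRP7 and RBM28 fell as well, with log2 FCs of -0.64 and -0.53, and PA2G4, GNL1 and DCAF13, between -0.08 and 0.08, did not pass.

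Amino acid and stress genes linked to ATF4 split. Of 11, 6 rose and 2 fell (median log2 FC 0.20), although ATF4 itself, the transcription factor of the amino acid response, had a log2 FC of 0.06 that did not pass. Beside PSAT1, the mitochondrial folate enzymes SHMT2 and MTHFD1L rose with log2 FCs of 0.44 and 0.36, and the autophagy receptor SQSTM1 with 0.49. VARS1, the valyl-tRNA synthetase, fell from 469, 425 and 406 CPM to 240, 227 and 272 CPM (log2 FC -0.81, SE 0.0744, edgeR adjusted p = 5.25e-07). PYCR3, a proline synthesis enzyme, fell from 149, 155 and 152 CPM to 103, 106 and 104 CPM (log2 FC -0.54, SE 0.0648, edgeR adjusted p = 9.11e-06). So within this list the serine and folate enzymes went up while the valyl-tRNA synthetase and the proline enzyme went down, and MARS1 and NARS1, at 0.14 and 0.08, did not pass.

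The listed B-cell receptor and NF-kB genes leaned downward, with 9 of 16 fallen and 3 risen (median log2 FC -0.23). The CD79 genes, BTK, SYK, LYN and PLCG2 are not in this list. Its counts therefore describe these members and not the pathway as a whole. NCF4, a cytosolic subunit of the NADPH oxidase, fell from 179, 192 and 163 CPM to 106, 111 and 107 CPM (log2 FC -0.71, SE 0.0684, edgeR adjusted p = 8.9e-07). TNFRSF13C, the BAFF receptor, fell from 107, 111 and 105 CPM to 70.5, 82.1 and 76.0 CPM (log2 FC -0.50, SE 0.0744, edgeR adjusted p = 7.58e-05). INPP5D, the SHIP1 phosphatase that opposes PI3K, fell from 1034, 893 and 904 CPM to 756, 593 and 757 CPM (log2 FC -0.43, SE 0.0810, edgeR adjusted p = 0.000666). None of these overlapped between the times. PIK3R1, a regulatory subunit of class I PI3K, fell from 66.7, 58.5 and 59.7 CPM to 50.1, 47.5 and 49.5 CPM (log2 FC -0.33, SE 0.0718, edgeR adjusted p = 0.00243). The 3 that rose were TNF, TNFAIP3 and TAB2. TNF, the inflammatory cytokine, went from 12.5, 28 and 25.5 CPM to 34.7, 33.8 and 31.5 CPM, where most of the change came from passage p121 (log2 change 1.46, against 0.27 and 0.30). In the PI3K, mTOR and FOXO list, which shares PIK3R1 and INPP5D, 5 of 11 fell and 2 rose: RPTOR, PRR5 and TFEB were the other fallen genes, and FNIP1 and DEPTOR rose, with log2 FCs of 0.65 and 0.92.

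Actin, adhesion and migration genes fell in 9 of 15 cases and rose in 2, MTSS1 and ANXA1 (median log2 FC -0.31). MYH9, the heavy chain of non-muscle myosin IIA, went from 1740, 1356 and 1473 CPM to 1179, 926 and 1149 CPM (log2 FC -0.49, SE 0.0777, edgeR adjusted p = 0.000138). ITGA4, the integrin alpha 4 chain, fell from 247, 203 and 222 CPM to 188, 151 and 158 CPM (log2 FC -0.43, SE 0.0680, edgeR adjusted p = 0.00013). IQGAP1 and PARVG fell with log2 FCs of -0.40 and -0.55. AKAP12, a scaffold protein, had 8.27, 9.06 and 11.2 CPM and then 8.86, 6.92 and 8.55 CPM, and neither stood apart nor passed.

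Mitochondrial genes fell in 7 of 20 cases, close to the 29.2% of all named genes (median log2 FC -0.09). None of them rose, beside 20.6% of the named genes. ATP5F1B, a subunit of ATP synthase, fell from 1366, 1560 and 1447 CPM to 1160, 1246 and 1180 CPM (log2 FC -0.29, SE 0.0655, edgeR adjusted p = 0.00381). CYC1, cytochrome c1, and SCO2, a copper chaperone of cytochrome oxidase, fell with log2 FCs of -0.37 and -0.68. In the redox and heme list 4 of 8 fell, among them TXNRD1 and CYB5R3, and 2 rose, TSPO and OXR1, with log2 FCs of 0.78 and 0.25.

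Cell cycle and DNA replication genes mostly did not pass: of 26, 3 rose and 6 fell, with a median log2 FC of -0.03. CDKN2B, an inhibitor of CDK4 and CDK6, rose from 125, 139 and 129 CPM to 181, 221 and 205 CPM (log2 FC 0.63, SE 0.0650, edgeR adjusted p = 9.56e-07). CDK2, CDK4 and CCND3, the kinases and cyclin of the G1 phase in this list, had log2 FCs between -0.10 and 0.03. TCF19, GTSE1, MCM5, KIF20A, LMNB1 and CENPM fell. Among 8 cell death and p53 genes, MDM2, the p53 ubiquitin ligase, rose from 174, 179 and 191 CPM to 259, 288 and 259 CPM (log2 FC 0.57, SE 0.0725, edgeR adjusted p = 7.73e-06). PLAGL1 also rose, BAK1 and DAPK1 fell, and BCL2, with 30.3, 21.5 and 27 CPM and then 31.1, 29 and 30.8 CPM, did not pass.

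Among B-cell regulators, HIVEP2 rose from 27.1, 20 and 28.1 CPM to 55.6, 38.2 and 48.1 CPM (log2 FC 0.92, SE 0.112, edgeR adjusted p = 5.19e-06), STAT6 and TLE4 fell, and 2 of the 8 rose in all. The endoplasmic reticulum list was mixed, with 4 of 17 risen, WFS1 among them, and 6 fallen, COPA, CRELD2 and CANX among them. Its median of -0.01 had no stable sign across the alternatives. Of 9 hypoxia-responsive genes 6 were in both fits, and of these PFKFB2 and HMOX1 fell and none rose. The median log2 FC of the 9 was 0.14 (-0.14, 0.20 and -0.05 by passage). PLIN2, at 0.16, passed in the second fit alone (edgeR adjusted p = 0.0381). P4HA2 had a log2 FC of 2.28 from 24 to 48 h. It then stood at means of 10.6 CPM at 48 h and 11.6 CPM at 72 h, a change that did not pass. NDRG1, a standard marker of low oxygen, had 2 reads over the 48 h libraries and 5 over the 72 h libraries, too few for a fold.

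**Figure D3:**
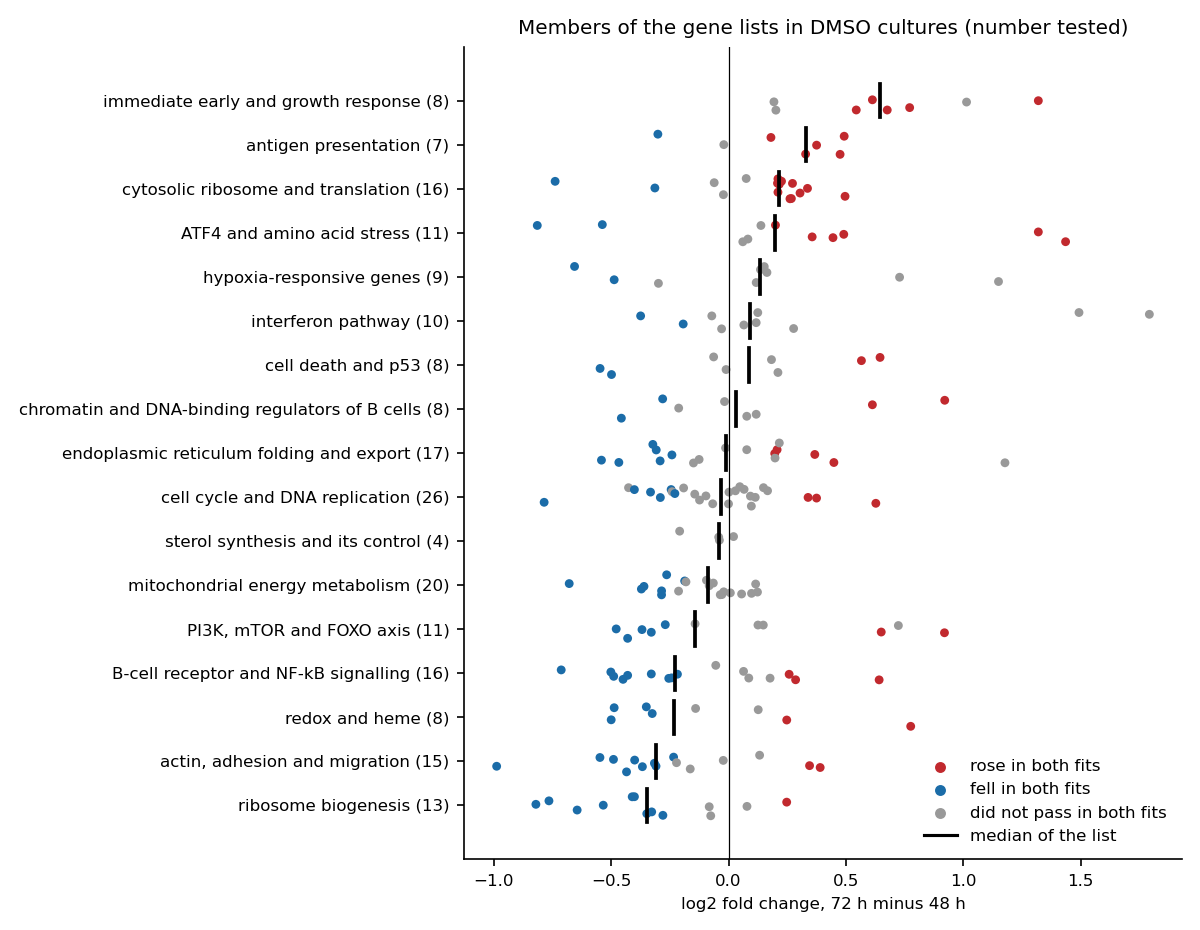
The log2 fold change of DMSO 72 h against 48 h (horizontal axis) is plotted for each tested member of the 17 gene lists, with the number tested in brackets and the list's median as a black bar. Red members rose and blue members fell in both fits, and gray members did not pass in both. The growth and antigen presentation lists have their medians at 0.64 and 0.33, and ribosome biogenesis and actin lie at the other end, at -0.35 and -0.31.

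The second day was set against the first within the same 3 passages, with the 24 h libraries added. From 24 to 48 h, 118 genes were DEGs (0.717%), so the change from 48 to 72 h involved more genes. The 2 steps share the 48 h libraries, and the difference between them was therefore tested directly. For 205 genes (1.24%) the second step differed from the first with the same limits, 92 with a more positive and 113 with a more negative second step, and 153 of them held in both fits. Without passage as a term the count was 123. Of the 153, 94 were also DEGs of both fits between 48 and 72 h, beside 396 of all 11253 genes of both fits. The difference between steps contains the 48 to 72 h change and its libraries, so this overlap is partly built in and tests nothing. The named DEGs in the next paragraph were chosen for that same change.

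PSAT1 had the smallest adjusted p of the DEGs given here. Its log2 FC was 0.15 in the first step and the difference between steps 1.28 (SE 0.123, edgeR adjusted p = 7.56e-06). For TTC39B the difference was 1.37 (SE 0.293, edgeR adjusted p = 0.00865) and for TRIB1 0.74 (SE 0.168, edgeR adjusted p = 0.0107). BCR and TREML2 had first steps of 0.32 and 0.38 that did not pass and differed by -1.37 and -1.39, with adjusted p-values of 0.00693 and 0.00987 by edgeR. Larger differences were found in GRTP1 and MAPK8IP2, which had few reads. GRTP1 had a first step of 0.54 and differed by -2.46 (SE 0.568, edgeR adjusted p = 0.0139). MAPK8IP2 had a first step of -0.80 and differed by 1.85 (SE 0.568, edgeR adjusted p = 0.0453). Neither of these first steps passed. MYC moved by 0.45 and then 0.54 and showed no such difference (edgeR adjusted p = 0.606), nor did NAB2, with 0.58 and 0.77. From 24 to 48 h, 5 of the 8 growth genes rose, beside 6.82% of the named genes, and these were the 5 that rose from 48 to 72 h (NAB2, IER3, MYC, MYB and TRIB1). KLF10 and PIM1 had first steps of -0.32 and -0.0028 that did not pass, and EGR1 passed neither step in both fits.

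Of the 4 sterol genes, 3 had the reverse order in time. ACAT2, a cytosolic thiolase that feeds sterol synthesis, measured 263, 222 and 229 CPM at 24 h, 497, 542 and 589 CPM at 48 h and 500, 555 and 529 CPM at 72 h. The first step carried the whole change, and the second was -0.04 on the log2 scale with overlapping libraries (difference -1.23, SE 0.137, edgeR adjusted p = 7.43e-05). SQLE, squalene epoxidase, measured 965, 1101 and 1129 CPM at 48 h and 1073, 1144 and 1026 CPM at 72 h, after 789, 682 and 709 CPM at 24 h. SREBF2, the transcription factor of sterol synthesis, had first and second steps of 0.46 and -0.04. All 3 had risen from 24 to 48 h. ERLIN1, the other member, had first and second steps of -0.05 and -0.21. None of the 4 sterol genes passed from 48 to 72 h.

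The same interval was then read in the inhibitor cultures, which share no library with the DMSO change but come from the same passages. Between 48 and 72 h, Ibr had 58 DEGs (0.311% of 18670), AS 91 (0.487%) and Ibr + AS 36 (0.193%), fewer than DMSO in the same fit, with 491 (2.63%). The Ibr count left out 1 library at 72 h that the study set aside, and was 137 with it. In AS 84 of the 91 and in Ibr 55 of the 58 were higher at 72 h, whereas in Ibr + AS 32 of the 36 were lower. Of the 363 genes higher in DMSO, 81.3% also went up in AS, with a median log2 FC of 0.48. In Ibr this was 58.1% with a median of 0.10, and in Ibr + AS 28.7% with a median of -0.24, where 16 were DEGs in the opposite direction and none in the same. Among all genes averaging 1 CPM or more, 48.1%, 46.5% and 51.8% went up in AS, Ibr and Ibr + AS. Of the 132 genes lower in DMSO, 69.7% went down in AS, 47.7% in Ibr and 43.9% in Ibr + AS. Among all genes averaging 1 CPM or more, 51.9%, 53.5% and 48.2% went down, in the same order. That level was reached by 325 of the 495 DEGs.

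**Figure D4:**
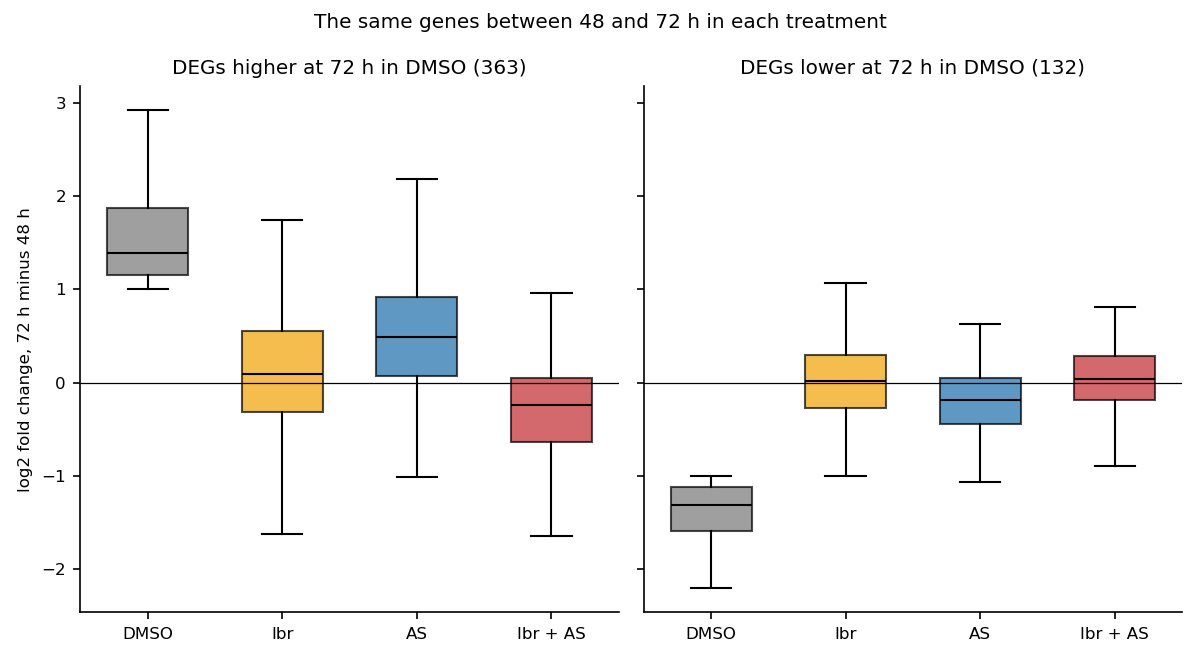
The log2 fold change of 72 h against 48 h (vertical axis) is summarised in each treatment for the 363 DEGs higher (left) and the 132 DEGs lower (right) in DMSO, as boxes from the lower to the upper quartile with the median inside and whiskers to 1.5 interquartile ranges. The DMSO boxes show the values that chose the genes. The medians on the left are 0.10 in Ibr, 0.48 in AS and -0.24 in Ibr + AS.

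The difference between each inhibitor's change and that of DMSO was tested in the fit of all treatments, in which the 3 differences share the DMSO libraries. It passed the DEG limits for 117 genes in AS (0.627%), 362 in Ibr (1.94%) and 614 in Ibr + AS (3.29%), of which 452 had the lower change in the inhibitor cultures. PSAT1, which rose by 1.44 in DMSO, had log2 FCs of 0.03 in Ibr, -0.12 in AS and 0.20 in Ibr + AS. TRIB1 had -0.46, 0.06 and -0.63 and TTC39B 0.16, 0.16 and 0.36. None of these values passed, and for all 3 genes the difference from DMSO did in every treatment. These 3 were named for a large rise in the same DMSO libraries, which enter each difference. The size of these differences is therefore a description. MYC had 0.02 in Ibr and 0.03 in AS, and in Ibr + AS it fell, by 0.41 on the log2 scale (edgeR adjusted p = 0.00727).

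In this paragraph and for MYC above, rose, fell and a lower or higher change in the inhibitor cultures rest on the adjusted p of that fit alone. The growth list, with a median log2 FC of 0.64 in DMSO, had 0.10 in Ibr, 0.25 in AS and -0.13 in Ibr + AS, where the change of 5 of the 8 genes was lower than in DMSO. Among the antigen presentation genes in Ibr + AS 3 of the 7 fell, beside 2.01% of the named genes, and the change of 6 was lower than in DMSO, beside 30.9% of the named genes whose change differed there in either direction. The median log2 FC was -0.38 in Ibr + AS, -0.10 in Ibr and 0.13 in AS. For DLA-DRA the log2 FC was -0.52 in Ibr + AS (edgeR adjusted p = 0.00251) and its difference from DMSO -1.04 (SE 0.15, edgeR adjusted p = 3.57e-07). In Ibr + AS, 9 of the 16 cytosolic ribosome and translation genes also had a lower change than in DMSO. The ribosome biogenesis genes had a higher change for 6 of 13, with a median of 0.10 against -0.35. ACAT2 rose from 48 to 72 h in Ibr and AS, with log2 FCs of 0.82 and 0.71, and had 0.18 in Ibr + AS, which did not pass.

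**Figure D5:**
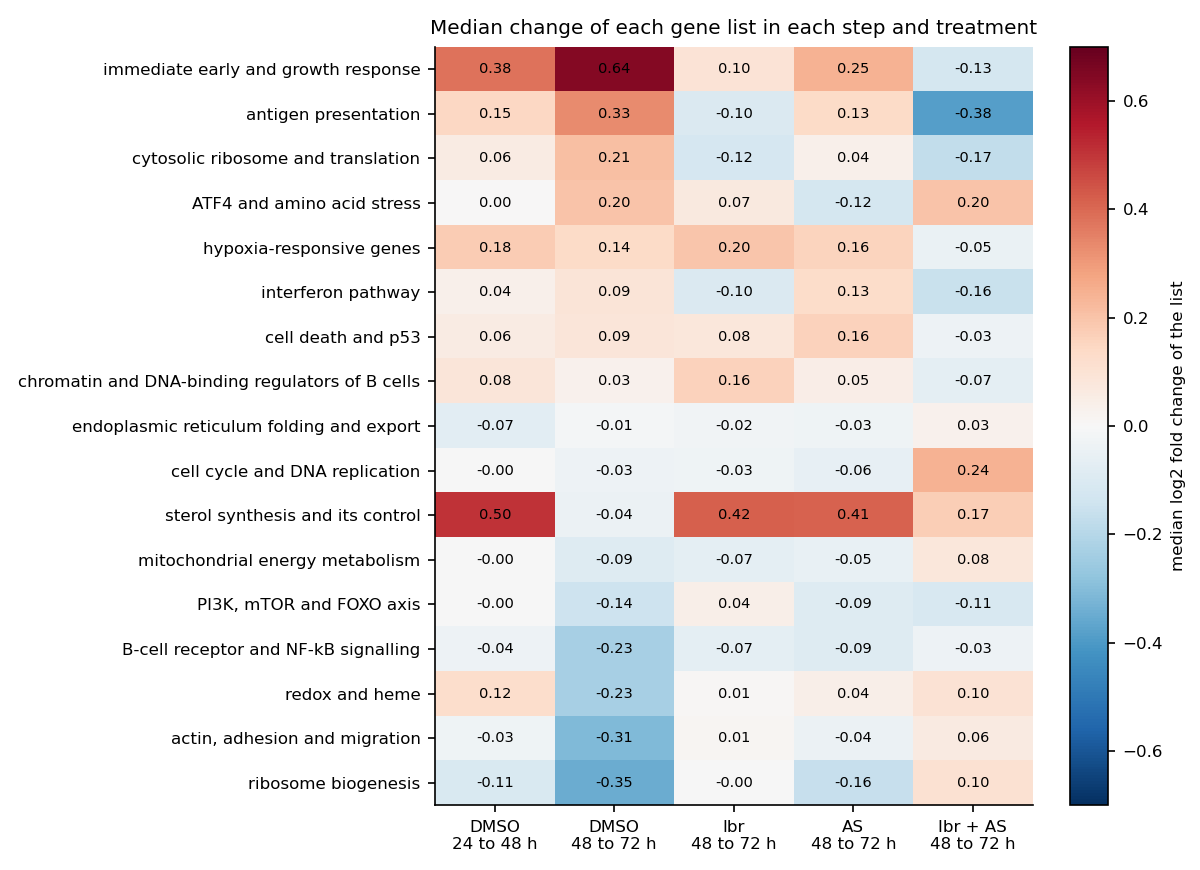
Each cell gives the median log2 fold change of a gene list (rows) over the first and second day in DMSO and over the second day in Ibr, AS and Ibr + AS (columns), in red where higher and blue where lower at the later time. The sterol list is highest in the first DMSO day, at 0.50, and antigen presentation is 0.33 in the second DMSO day and -0.38 in Ibr + AS.

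The 36 libraries carry header numbers that restart after 18, which parts them into 2 sets of 18. Passage p121 fell wholly in the first set and passage p128 in the second, while passage p126 had its 48 h library in the first and its 72 h library in the second. With the set as a further term, chosen after the data were seen, there were 424 DEGs, 314 higher and 110 lower. HIGD1B did not pass with this term in either fit. Without passage p126, where each passage lies within 1 set, there were 392 DEGs, of which 342 were among the 495. Without passage p126 in the second fit, antigen presentation had 4 risen and 1 fallen, ribosome biogenesis 8 fallen and none risen, the growth genes 5 risen and the cytosolic ribosome list 9 risen and 2 fallen. The B-cell receptor list then had 7 fallen and 3 risen and the actin list 6 fallen and 2 risen.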

How the data were processed

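Poly-A RNA of CLBL-1 was sequenced as single-end reads by the authors, who pooled lanes, mapped with STAR 2.7.5a to CanFam3.1 and deposited unnormalized read counts per Ensembl gene. The deposited counts of 36 libraries were read, 9941919 to 14703839 per library, and every column was mapped to a sample by its library name. Groups were treatment and time, blocked by passage. Passage pairs the samples through the labels; deviations from the group means correlated with a median r of 0.09 over 9 same-passage pairs and -0.05 over 18 others (11253 genes), and for 48 h with 72 h by 0.29, 0.29 and -0.07. For DMSO 24 h replicate 3 the title and the passage field differ, and the field was used. No replicate pair held identical values.

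The main test was the quasi-likelihood test of edgeR 4.0.16 (R 4.3.3, limma 3.58.1) with TMM factors and passage as a term, on the 9 DMSO libraries or, for the inhibitors, on 35 libraries without Ibr 72 h replicate 3. The study's limits of adjusted p (Benjamini-Hochberg) at most 0.05 and absolute log2 FC above 1 were kept, for genes with at least 2 reads. CPM are per 1000000 counted reads, scaled by TMM factors. Alternatives were DESeq2 1.42.0, other factors, other filters, other library sets and leaving out each passage or library. Scripts were tested on simulated data.

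Named were up to 12 genes per direction among DEGs with a symbol, at least 1 CPM and 1 direction in all passages, list members that were DEGs, 10 genes fixed by name, up to 4 members per list with the smallest p, and 2 identifiers per direction without a symbol. PLIN2, KDM4C, ERLIN1, DDX58, ETV7 and other members named by this rule are in the list counts. Members and lists were chosen with earlier results of these data known. Symbols are those the study's tables pair with identifiers; the reference table paired none.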

Additional observations from a re-analysis of the deposited data

Results flagged for a closer look

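Effects that differed by a test of the difference itself are given here as values. The second step in DMSO differed from the first for 205 genes, and the 48 to 72 h change differed from that in DMSO for 362 genes in Ibr, 117 in AS and 614 in Ibr + AS.

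Among the named DEGs, the change in an inhibitor minus that in DMSO, on the log2 scale, was tested for 13 genes in 3 treatments and passed both limits in these cases. For MYO1A it was -1.35 in AS and -1.57 in Ibr + AS, for ALDH8A1 -1.73 in Ibr + AS, and for IL23A -1.75 in AS and -1.53 in Ibr + AS. For TTC39B it was -1.36 in Ibr, -1.36 in AS and -1.16 in Ibr + AS. PSAT1 had -1.43, -1.58 and -1.26, and TRIB1 had -1.80, -1.29 and -1.98, in the same order. IL17REL had -2.17 in Ibr + AS. Genes that were lower at 72 h in DMSO had positive differences: GRTP1 3.33 in Ibr, 2.04 in AS and 2.14 in Ibr + AS, GRK1 1.52 in Ibr + AS, HIGD1B 2.07 in Ibr, BCR 1.28 in Ibr and 1.20 in Ibr + AS, and TREML2 1.23 in Ibr. These genes were chosen for a large change in DMSO, and the DMSO libraries enter every difference, so the size of these differences is a description.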

How the results depend on the processing

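The 495 DEGs became 325 with DESeq2, of which 316 were shared, and 75 with glmTreat, which tests against the fold limit itself. Under the other scalings, filters and library sets the count was 485 to 521, apart from the 410 and 424 given above, and with filterByExpr added to another choice it was 377 with the header set as a term, 401 without the passage block and 382 to 450 without a passage. Leaving out a whole passage gave 392 to 489 DEGs, and leaving out a single library gave 403 to 526. The 205 genes whose steps differed became 75 with DESeq2 and, without the passage block, 123 (113 with filterByExpr as well). They became 129 with the header set as a term and filterByExpr, 142 to 205 without a passage, and 111 to 124 without a passage and with filterByExpr. For DMSO 72 h against 48 h the fit without the passage block gave 521 DEGs, with 465 shared, so the pairing moved no other count by over 1.5 times. The Ibr + AS count of 36 was 21 with DESeq2, 5 of them higher, and 30 to 109 without a passage, highest without passage p128. The Ibr count of 58 was 137 with all 36 libraries and 69 to 117 without a passage. The differences from DMSO numbered 197 to 497 in Ibr, 76 to 146 in AS and 466 to 753 in Ibr + AS without a passage, lowest without passage p126 in each. Over 23 alternatives the list medians of 14 of the 17 lists kept their sign, that of the endoplasmic reticulum list changed it in 10, that of the sterol list in 2 (up to 0.02) and that of the hypoxia list in 1 (-0.08 without passage p126). Settings with filterByExpr added to another choice, and the header set, were chosen after the data were seen. Of the 13 named DEGs, 6 kept an adjusted p of at most 0.05 in all 23 alternatives, BCR, GRTP1 and TREML2 in all but glmTreat, and GRK1, HIGD1B, IL17REL and MAPK8IP2 did not pass with DESeq2. Genes of few reads set the limit of depth here, since 58 DEGs rest on a group with 3 reads or fewer per library.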

Other observations

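IL5, a cytokine of T helper cells that was named as a list member and DEG, had 0.167, 0.775 and 0.638 CPM at 48 h and 1.09, 1.23 and 1.74 CPM at 72 h in DMSO. The times did not overlap (log2 FC 1.35, SE 0.411, edgeR adjusted p = 0.0127). In the reference annotation, which is not the one used for counting, the span of IL5 overlaps RAD50. The T and NK markers TCF7, IL2RB, CD226 and IL4 were each below 0.14 CPM on average at both times. TXNRD1 and IFNGR1 fell over both days: TXNRD1 was 408, 399 and 374 CPM at 24 h, 292, 305 and 297 CPM at 48 h and 225, 243 and 235 CPM at 72 h.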
